A study of Homo sapiens with 8 samples.

Results

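The genes described here are 55 members of the muscle and actomyosin machinery, chosen by name from 69215 genes in the read count tables of G401 cells. They comprise muscle actins, actin-binding proteins, myosins, tropomyosins and troponins, sarcomere and dystroglycan proteins, LIM domain proteins, creatine kinases and the SRF and MEF2 transcriptional regulators. G401 cells were established from a kidney rhabdoid tumor and have lost SMARCB1, a core subunit of the SWI/SNF chromatin remodelling complexes. Both engineered lines studied carry a Tet-On system in this SMARCB1-deficient background, through which doxycycline (Dox) switches on SMARCB1 in one line and GFP, the control protein, in the other. Cells received 0.1 µg/ml Dox or the solvent DMSO for 12 h, which gave the groups SMARCB1 DMSO, SMARCB1 Dox, GFP DMSO and GFP Dox with 2 RNA libraries each. The sources do not state whether either line is a single clone, and plates of a condition were pooled. The methods give the experiments as done in duplicate without saying whether the duplicates of the RNA libraries came from separate cultures, so p-values measure only the spread between these libraries.

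Actomyosin is the contractile system in which myosin motors pull on actin filaments. Muscle cells use specialised actins, myosins, tropomyosins and troponins in sarcomeres or smooth muscle bundles, whereas most other cells use the non-muscle forms in stress fibers and at adhesions. Many of these genes are transcribed through SRF, which binds a promoter element called the CArG box and is switched on by actin-sensing partners of the MRTF family or, in muscle, by myocardin, while MEF2 factors act on a separate element of muscle genes.

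Each library held between 29632090 and 37597477 reads assigned to genes, and 3 reads corresponded to between 0.0798 and 0.101 per 1000000 of these unscaled reads. CPM below stands for reads of a gene per 1000000 reads of the scaled library, which differs slightly. Mitochondrial genes took between 18.9% and 27.9% of the gene counts, most of all in SMARCB1 DMSO replicate 1. SMARCB1 itself, the check of the labels, had 10 and 21 reads in SMARCB1 DMSO, 30474 and 29383 after Dox and 0 in all 4 GFP libraries. Of the 55 members, 48 passed the expression filter applied to all genes and were tested among 15931 genes.

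The name of the gene set describes what its members do in muscle and not what these cells were. Reads of MYOG, MYF5 and MYF6, which encode myogenic transcription factors, were 0 in all 8 libraries, and MYOD1 had a total of 1 read. The 8 skeletal muscle markers together amounted to between 8.87 and 9.4 CPM in the SMARCB1 line, most of it from MYH2 and ACTN2, and to between 0.874 and 1.3 CPM in the GFP line, with 3 of the 8 at 0 throughout. The 7 cardiac markers together reached at most 1.38 CPM, and MYH7, MYL2 and NPPA were at 0. The 7 smooth muscle markers together amounted to between 17.6 and 18.3 CPM in SMARCB1 DMSO, 21.7 and 22.4 after Dox, 21.2 and 21.5 in untreated GFP cells and 19.2 and 23.8 in GFP Dox. All 7 are themselves members, so this sum is not independent of the gene set. Most of it came from SMTN, with means of 13.3 CPM in SMARCB1 DMSO and 14.7 after Dox (edgeR adjusted p = 0.522). The 6 fibroblast markers summed to between 694 and 801 CPM in SMARCB1 DMSO, 652 and 839 after Dox, 1247 and 1498 in untreated GFP cells and 1237 and 1508 in GFP Dox. Among them COL1A1, a collagen gene, rose with Dox in the SMARCB1 line (1.29-fold, adjusted p = 0.0404) and was lower there than in the GFP line without Dox (log2 -4.81, adjusted p = 3.28e-18). With Dox, COL1A2, COL3A1 and PDGFRB were not called (log2 0.11, -0.19 and -0.04). Without Dox, COL3A1 and PDGFRB were lower in the SMARCB1 line (log2 -0.54 and -0.51), and COL1A2 was not called (0.20). LUM had 0 reads in all libraries and DCN a total of 1. The 5 epithelial markers summed to between 603 and 611 CPM in SMARCB1 DMSO, 542 and 650 after Dox and 890 and 994 in the GFP line, nearly all of it from KRT8 and KRT18. The 5 leukocyte and endothelial markers summed to between 3.05 and 3.06 CPM in SMARCB1 DMSO, 1.86 and 2.39 after Dox and 2.92 and 3.46 in the GFP line. CD68, a lysosomal protein of macrophages, fell with Dox in the SMARCB1 line (0.535-fold, adjusted p = 0.0222). A long non-coding RNA gene on the same strand overlaps 81.6% of the CD68 exon bases. VWF had a positive value there and was not called (log2 0.99, adjusted p = 0.396). CDH5, PTPRC and PECAM1 were not tested, and CDH5 had 5 and 7 reads in SMARCB1 DMSO and 16 and 9 after Dox. The part of any other cell type in the results below was not tested.

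The members that were not tested were largely muscle-specific. ACTC1, the cardiac actin, had 1 read in all 8 libraries together, MYL4 and SGCD had 0, MYH11, the smooth muscle myosin heavy chain, had 4, DES, the muscle intermediate filament protein desmin, had 9, MYOCD, which encodes myocardin, had 19, and CKM, the muscle creatine kinase, had 24. No library held more than 11 reads of any of them. A further 11 members averaged under 1 CPM, among them ACTA1, ACTA2, MYLK, TTN and NEB, and 6 lay between 1 and 10 CPM. The other 31 lay above 10 CPM, and 15 of these above 100 CPM.

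The 15 members above 100 CPM were TAGLN, CNN2, CNN3, MYH9, MYH10, TPM1, TPM4, SYNM, FLNC, DMD, DAG1, VCL, CSRP1, FHL1 and CKB. Per kilobase of exon, and averaged over the 8 libraries, TPM1, a tropomyosin that coats actin filaments, had the highest level at 88.5 CPM per kilobase. The calponin relatives CNN2 and CNN3 followed at 75.6 and 75.3, as did VCL, which encodes the adhesion protein vinculin, at 75.3. By the same measure the skeletal muscle actin ACTA1 had 0.157 CPM per kilobase. The non-muscle myosin heavy chains MYH9 and MYH10 were read at between 201 and 324 CPM and between 120 and 223 CPM.

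**Figure D1:**
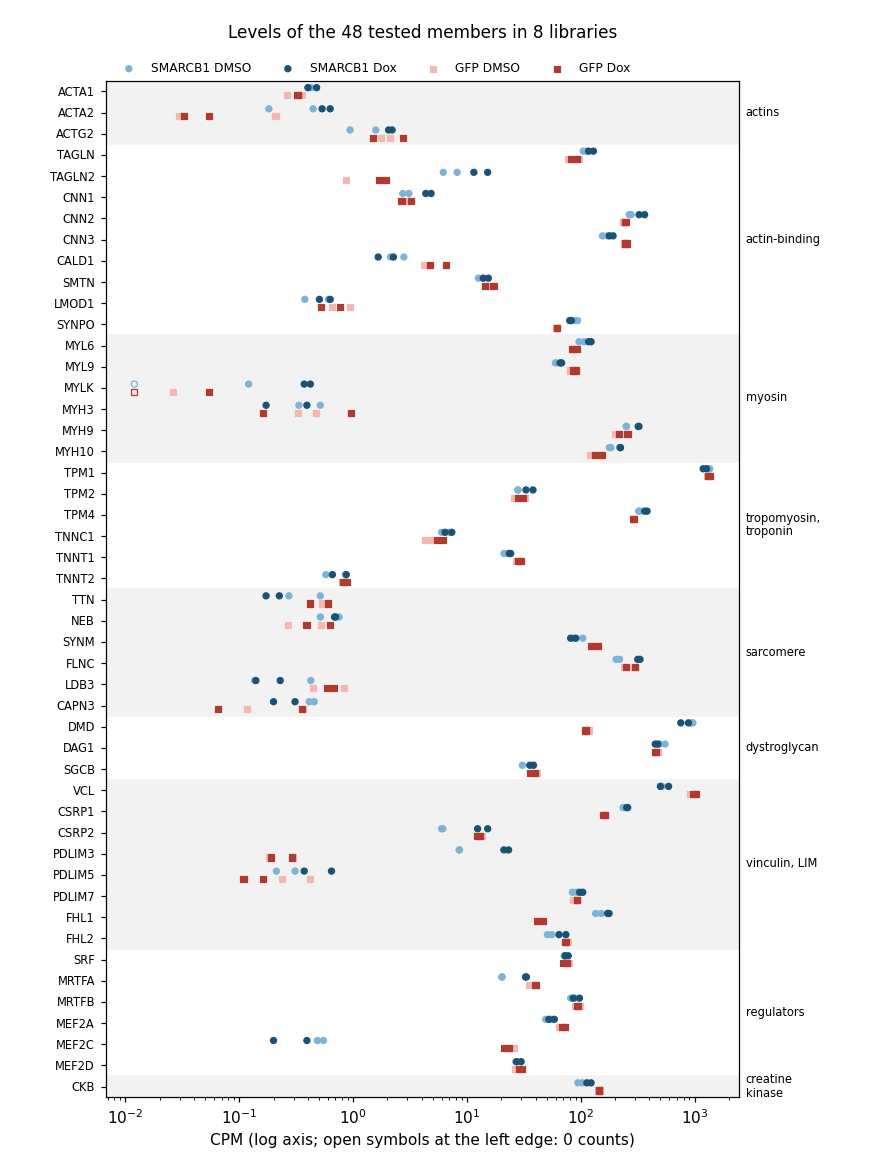
Level of each of the 48 tested members in the 8 libraries, in CPM on a log axis, with members ordered by role, circles for the SMARCB1 line and squares for the GFP line; light symbols are DMSO and dark symbols Dox. Levels span from 0 reads (open symbols, MYLK) to 1374 CPM (TPM1), and the clearest separation between the lines is seen for PDLIM3, DMD and MEF2C.

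The stretches of 250 bases before the transcription start are printed for the called members with the largest Dox response in the SMARCB1 line (PDLIM3 and CSRP2), for a pair of smaller responders that contain a CArG box (CNN2 and FHL2) and for SRF, which reads this element. They come from RefSeq on GRCh38.p14, run 5′ to 3′ on the gene's strand, and show the CArG box in capitals.
PDLIM3, chr4:185535508-185535757, minus strand: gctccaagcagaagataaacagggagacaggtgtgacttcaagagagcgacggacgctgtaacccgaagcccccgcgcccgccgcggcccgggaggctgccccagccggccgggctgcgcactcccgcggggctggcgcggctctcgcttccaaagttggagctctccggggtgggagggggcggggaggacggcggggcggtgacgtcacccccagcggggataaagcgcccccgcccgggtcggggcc
CSRP2, chr12:76879020-76879269, minus strand: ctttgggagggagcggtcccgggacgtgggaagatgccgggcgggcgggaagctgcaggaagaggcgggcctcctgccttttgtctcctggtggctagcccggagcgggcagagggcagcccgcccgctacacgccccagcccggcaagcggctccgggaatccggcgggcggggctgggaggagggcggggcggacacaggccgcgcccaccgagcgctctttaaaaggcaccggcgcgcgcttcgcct
CNN2, chr19:1026358-1026607, plus strand: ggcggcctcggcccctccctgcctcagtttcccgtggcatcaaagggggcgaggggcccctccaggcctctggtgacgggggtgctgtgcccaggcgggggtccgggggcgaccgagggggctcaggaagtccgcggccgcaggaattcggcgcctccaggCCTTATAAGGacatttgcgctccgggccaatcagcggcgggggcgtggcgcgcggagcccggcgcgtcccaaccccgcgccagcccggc
FHL2, chr2:105399052-105399301, minus strand: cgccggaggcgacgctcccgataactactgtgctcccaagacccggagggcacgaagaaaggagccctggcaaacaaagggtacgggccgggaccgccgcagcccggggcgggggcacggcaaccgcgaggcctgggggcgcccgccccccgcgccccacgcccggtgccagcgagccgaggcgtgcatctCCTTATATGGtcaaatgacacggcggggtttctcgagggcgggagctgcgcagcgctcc
SRF, chr6:43171019-43171268, plus strand: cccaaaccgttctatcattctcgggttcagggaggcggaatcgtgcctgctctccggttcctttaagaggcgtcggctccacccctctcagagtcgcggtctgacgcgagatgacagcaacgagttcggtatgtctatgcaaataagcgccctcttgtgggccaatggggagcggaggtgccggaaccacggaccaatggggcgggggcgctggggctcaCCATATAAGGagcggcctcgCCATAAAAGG
In these printed windows, the CArG box was found once each for CNN2 and FHL2, in a pair next to the SRF start and for neither PDLIM3 nor CSRP2. A window was available for 47 of the 55 members, and 12 of these (25.5%) held the CArG box in at least 1 of their upstream windows, against 394 of 27305 genes overall (1.44%). The 12 members were ACTA1, ACTC1, ACTG2, CNN2, DMD, FHL1, FHL2, LDB3, MYLK, SMTN, SRF and TPM4. FHL1 held it in 1 of its 12 windows and DMD in 1 of 7. The only MYLK window, chr3:123620549-123620798, lies inside the gene (chr3:123610049-123884332, minus strand) and not upstream of it. The printed FHL2 window, 1 of 4 for this gene, also lies inside it (chr2:105357712-105438513, minus strand). A box was found as well in the window at the start of the FHL2 gene, chr2:105438514-105438763. Windows with the box in ACTG2, DMD, FHL1, LDB3, SMTN and TPM4 also lay inside the gene. The set was put together from SRF and MEF2 pathway genes among others, so its share of CArG boxes is not independent of how it was chosen. Among the 13 members that rose with Dox in the SMARCB1 line, 3 (23.1%) held the element, namely CNN2, FHL1 and FHL2. A MEF2 site was found for 4 members (8.51%), TTN, CKB, CAPN3 and MEF2A, against 0.641% of all genes, and none of these 4 held a CArG box. A match describes only these letters in these windows.

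The first comparison asked what re-expression of SMARCB1 did to these genes. In the SMARCB1 line, Dox raised 13 of the 48 tested members (27.1%) and lowered 0, while 14% of all tested genes were called, 8.33% higher and 5.69% lower. RNA was taken from whole cultures, so a change in the level per cell and a change in the share of cells that express a gene cannot be told apart. The members that rose were PDLIM3, CSRP2, TAGLN2, MRTFA, CNN1, FLNC, FHL2, MYH9, CNN2, TPM2, MYH10, FHL1 and CKB, and only PDLIM3 and CSRP2 among them rose by more than 2-fold. Over all 48, the fitted log2 fold change had a median of 0.15 and was positive for 37, while its median over all genes was 0.00. Both Dox libraries lay above both DMSO libraries for 27 members and below them for 7, and 25.9% and 25.2% of all tested genes did so. The summed level of all 55 members was 6110 and 6255 CPM in SMARCB1 DMSO and 6370 and 6593 CPM after Dox.

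Single libraries decided how many members passed. Without SMARCB1 Dox replicate 1 the call held for 4 members (PDLIM3, CSRP2, MRTFA and FLNC), 8.33% of those tested, and 7.79% of all genes were then called. Without SMARCB1 DMSO replicate 1, the library richest in mitochondrial reads, it held for 6 (those 4 with TAGLN2 and CNN2), 12.2% of those tested against 8.77% of all genes. Across all genes the fold change correlated with exon GC content (Spearman's rho = 0.252), and across the 48 members, which share the same libraries, rho was 0.072. When that trend was removed, 9 members were called higher and 1 lower (SYNPO), with MYH9, CNN1, CKB and TPM2 no longer called. The calls were then 20.8% of the members tested and 12.8% of all genes. All 13 were called when mitochondrial genes were left out of the scaling.

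**Figure D2:**
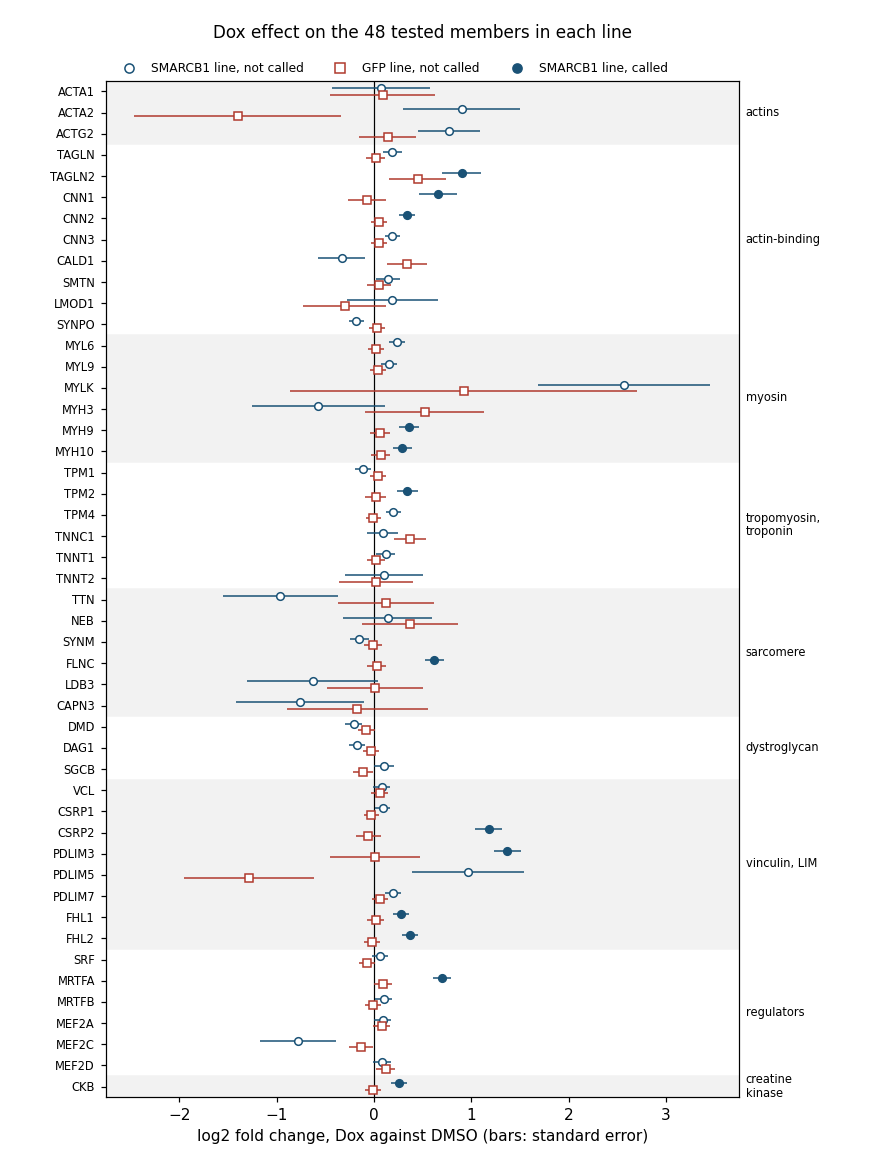
Log2 fold change of Dox against DMSO for each of the 48 tested members, by role, with circles for the SMARCB1 line, squares for the GFP line and bars for the standard error; filled circles are the 13 members called. All 13 filled circles lie to the right of 0, and no GFP square is called.

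Vinculin and the LIM domain proteins, which sit where actin filaments meet adhesions, Z-discs or the nucleus, held the largest called changes. All 8 had a positive fitted value, with a median log2 fold change of 0.33, and 4 were called. PDLIM3 (ENSG00000154553, GRCh38 chr4:185500660-185535507), which encodes a PDZ and LIM domain protein of the Z-disc also called ALP, was read at 8.58 and 8.55 CPM in SMARCB1 DMSO and at 21.1 and 23.2 CPM after Dox. In the GFP line it stayed between 0.182 and 0.296 CPM, so both lines differed in PDLIM3 before any Dox was given. The change in the SMARCB1 line was 2.58-fold (log2 1.37, SE 0.139, edgeR adjusted p = 6.37e-07).

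CSRP2 (chr12:76858709-76879023), which encodes a cysteine and glycine-rich LIM protein of smooth muscle and actin filaments, was read at 6.14 and 5.98 CPM in SMARCB1 DMSO and at 15.2 and 12.4 CPM after Dox. The GFP libraries lay between 12.2 and 13.6 CPM, so the SMARCB1 DMSO group stood below all the others and the Dox group reached the GFP level. The change was 2.27-fold (log2 1.18, SE 0.138, adjusted p = 3.75e-06).

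The FHL genes encode proteins with LIM domains in series that act as scaffolds and transcriptional cofactors. FHL2 (chr2:105357712-105438513) was read at 50.9 and 55.6 CPM in SMARCB1 DMSO, 73.9 and 64.3 after Dox, and between 72.8 and 76.5 in the GFP line, a 1.3-fold change in the SMARCB1 line (adjusted p = 0.00514). FHL1 (chrX:136146702-136211359) was read at 135 and 151 CPM in SMARCB1 DMSO and 172 and 177 CPM after Dox, a 1.22-fold change (adjusted p = 0.0228), and between 41.3 and 46.6 CPM in the GFP line. The FHL1 Dox libraries lay above the DMSO libraries in the SMARCB1 line, and every library of that line lay above the GFP libraries. VCL, CSRP1, PDLIM5 and PDLIM7 did not pass, with adjusted p between 0.126 and 0.609.

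Among the regulators, MRTFA was the only one of the 6 tested that passed. MRTFA (chr22:40410281-40636719) encodes a myocardin-related cofactor of SRF that is held by free actin and released when filaments form. It was read at 20.4 and 20.2 CPM in SMARCB1 DMSO, 33.3 and 32.7 after Dox, 35.2 and 40 in untreated GFP cells and 40.1 and 39.8 in GFP Dox. The replicates within each SMARCB1 group lay close together and the groups did not overlap, and the Dox group remained below the GFP line. The change was 1.63-fold (log2 0.70, SE 0.0946, adjusted p = 2.15e-05).

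SRF itself was read at 71.4 and 72.3 CPM in SMARCB1 DMSO and 77.5 and 72.8 after Dox, a log2 fold change of 0.06 (SE 0.0808, adjusted p = 0.678). MRTFB, the close relative of MRTFA, had 0.10 (SE 0.0865), MEF2A 0.09 (SE 0.0881) and MEF2D 0.08 (SE 0.0952). These fitted values are all smaller than 2 of their standard errors. MEF2C had 0.549 and 0.485 CPM in SMARCB1 DMSO and 0.393 and 0.2 CPM after Dox, with an adjusted p of 0.207.

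Of the 9 actin-binding proteins of the smooth muscle type, 3 rose, 7 had a positive fitted value and the median log2 fold change was 0.19. TAGLN2, a relative of the smooth muscle protein transgelin that is found in many cell types, was read at 8.2 and 6.19 CPM in SMARCB1 DMSO, 15.2 and 11.5 after Dox and between 0.86 and 1.95 in the GFP line. Its change was 1.87-fold (log2 0.90, SE 0.199, adjusted p = 0.00353). The groups did not overlap, although the replicates within each spread widely.

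CNN1, the calponin of smooth muscle, was read at 3.09 and 2.73 CPM in SMARCB1 DMSO and 4.35 and 4.84 after Dox, a 1.58-fold change (log2 0.66, SE 0.194, adjusted p = 0.0243). In the GFP libraries it lay between 2.66 and 3.2 CPM. CNN2, a calponin of non-muscle cells, was read at 266 and 277 CPM in SMARCB1 DMSO and 363 and 325 after Dox, a 1.27-fold change (log2 0.34, SE 0.0806, adjusted p = 0.00579). Its GFP libraries lay between 233 and 247 CPM, below both groups of the SMARCB1 line. TAGLN, the transgelin of smooth muscle, had 105 and 111 CPM in SMARCB1 DMSO and 129 and 117 after Dox with an adjusted p of 0.217, and 34.1% of its exon bases overlap PCSK7 on the opposite strand, whose reads may not have been told apart because the strand setting of the counting is not given. CNN3, CALD1, SMTN, LMOD1 and SYNPO also did not pass, with log2 fold changes between -0.33 and 0.19.

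Of the 6 myosin genes tested, the heavy chains MYH9 and MYH10 rose. MYH9, the heavy chain of non-muscle myosin IIA, was read at 252 and 250 CPM in SMARCB1 DMSO and at 324 and 319 after Dox, a 1.28-fold change (log2 0.36, SE 0.0994, adjusted p = 0.0183). Its GFP libraries ran from 201 to 257 CPM. MYH10, the heavy chain of non-muscle myosin IIB, was read at 184 and 178 CPM in SMARCB1 DMSO and 221 and 223 after Dox, a 1.22-fold change (log2 0.29, SE 0.0955, adjusted p = 0.0445), and between 120 and 152 CPM in the GFP line. Both heavy chains had close replicates in the SMARCB1 line and wider spread in the GFP line. The light chains MYL6 and MYL9 had log2 fold changes of 0.24 (adjusted p = 0.0594) and 0.15 (adjusted p = 0.266), and MYL6 shares 16.3% of its exon bases with SMARCC2 on the opposite strand. MYLK, the kinase that activates smooth muscle myosin, rested on few reads, 0 and 4 in SMARCB1 DMSO against 15 and 13 in SMARCB1 Dox, a ratio of summed levels of 6.16 (exact 95% interval 2.16 to 24.2 for counting error only), with an adjusted p of 0.0572. MYH3, the embryonic skeletal heavy chain, lay under 1 CPM in every library and its groups overlapped.

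Tropomyosins and troponins lie along the actin filament and gate its contact with myosin. TPM2 was the only one of 6 that passed, at 28 and 28.1 CPM in SMARCB1 DMSO, 38 and 33 after Dox and between 26 and 32.1 in the GFP line, a 1.27-fold change (log2 0.34, SE 0.108, adjusted p = 0.0369). TPM1, the most abundant member, was read at 1300 and 1358 CPM in SMARCB1 DMSO and 1187 and 1269 after Dox (log2 -0.11, SE 0.082, adjusted p = 0.428). TPM4 was read at 327 and 322 CPM against 382 and 364, with an adjusted p of 0.0867. The troponin genes TNNC1, TNNT1 and TNNT2 had log2 fold changes between 0.09 and 0.12.

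Of the 6 tested sarcomere, Z-disc and filament proteins, 1 rose and 4 had a negative fitted value. FLNC (chr7:128830406-128859274), the filamin of muscle that crosslinks actin at the Z-disc, was read at 204 and 219 CPM in SMARCB1 DMSO and at 331 and 316 after Dox, a 1.53-fold change (log2 0.62, SE 0.0986, adjusted p = 0.000158). The GFP libraries ran from 240 to 297 CPM, between both groups of the SMARCB1 line. SYNM, an intermediate filament protein, had 86.6 and 104 CPM against 81.4 and 90.3, and these groups overlapped. The giant proteins TTN and NEB, and LDB3 and CAPN3, were all under 1 CPM, where a fold change carries a standard error of 0.457 or more.

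The dystroglycan complex, which ties the cytoskeleton to the matrix outside the cell, had no called member among 3 tested. DMD, which encodes dystrophin, was read at 924 and 964 CPM in SMARCB1 DMSO and 755 and 881 after Dox, and DAG1, which encodes dystroglycan, at 550 and 491 against 450 and 474. Both were lower in both Dox libraries, with log2 fold changes of -0.21 (SE 0.0844, adjusted p = 0.114) and -0.17 (SE 0.082, adjusted p = 0.192). SGCB, a sarcoglycan, had 0.10 (SE 0.103).

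The muscle actins did not pass. ACTG2, the enteric smooth muscle actin, was read at 1.58 and 0.94 CPM in SMARCB1 DMSO and 2.05 and 2.2 after Dox (log2 0.77, SE 0.316, adjusted p = 0.117). ACTA1 and ACTA2 lay under 1 CPM in all libraries, and reads shared between the near-identical actin genes could have gone uncounted. Of the creatine kinases, which buffer ATP, only the brain form CKB was tested, at 94.1 and 103 CPM in SMARCB1 DMSO and 123 and 113 after Dox, below the 143 to 147 CPM of the GFP line, a 1.19-fold change (log2 0.26, SE 0.0808, adjusted p = 0.0373). With the GC trend removed, the CKB value was 0.06.

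**Figure D3:**
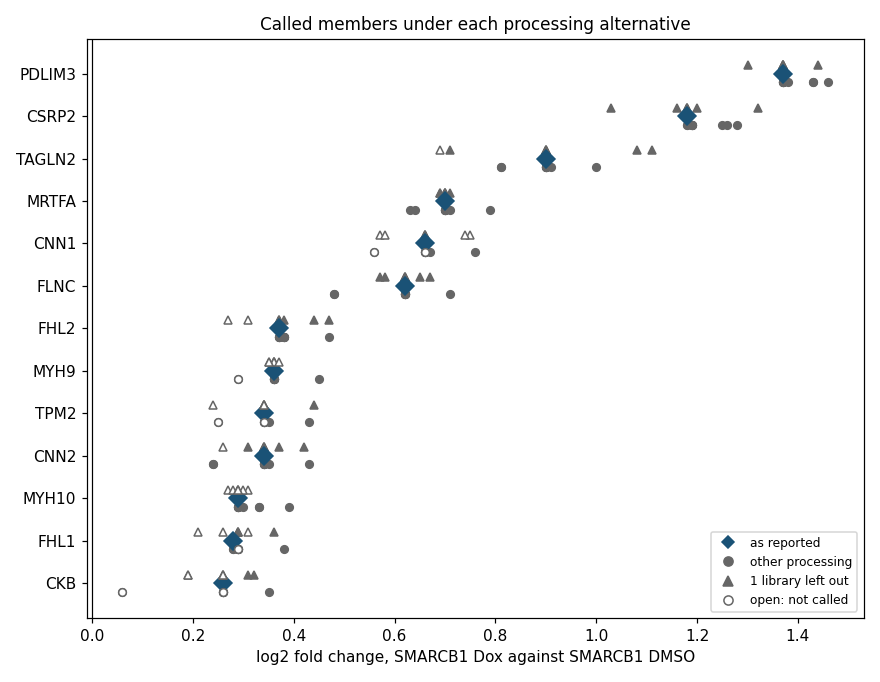
Log2 fold change with Dox in the SMARCB1 line of the 13 called members, as reported (diamonds), under other processing (circles) and with 1 library left out (triangles); open symbols mark values that were not called. PDLIM3, CSRP2, MRTFA and FLNC show filled symbols only, and no value falls below 0.

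GFP cells were the control for Dox and for making a foreign protein. There Dox changed 0 of the 48 members, and 0% of all genes tested were called by edgeR, with 266 genes and 1 member (TNNC1) at an unadjusted p under 0.05. DESeq2 also called 0 members. The median log2 fold change of the members was 0.02, and for the 31 members above 10 CPM it ranged from -0.13 to 0.12. Both Dox libraries lay above both DMSO libraries for 6 members and below for 3, against 13.6% and 13.2% of all genes.

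The difference between the Dox effects of the lines was tested as an interaction, which uses all 4 groups. It passed for 3 of the 48 members (6.25%), all with the larger rise in the SMARCB1 line, against 4.71% of all genes, 3.07% in that direction and 1.64% in the other. The difference was 1.24 on the log2 scale for CSRP2 (SE 0.189, adjusted p = 0.000379), 0.61 for MRTFA (SE 0.131, adjusted p = 0.00698) and 0.59 for FLNC (SE 0.139, adjusted p = 0.0149). PDLIM3, with the largest called change in the SMARCB1 line, had a difference of 1.36 but an SE of 0.497 and an adjusted p of 0.145, since between 7 and 10 reads stood behind each GFP library. The difference for FHL2 was 0.40 (adjusted p = 0.0678). For the other called members of the SMARCB1 line the difference was not shown, with adjusted p between 0.162 and 0.608.

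These interaction calls did not all hold under the alternatives. MRTFA and FLNC lost the call without GFP DMSO replicate 2. FLNC also lost it without SMARCB1 Dox replicate 1, without GFP Dox replicate 1 and with the GC trend removed. Leaving out a library left 1 in its group, and in each of these fits a smaller share of all genes was called as well. The losses therefore cannot be read as particular to these members.

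A list of 91 related genes that are not members was read in the same way, and 62 of them were tested. In the SMARCB1 line 14 passed (22.6%), 12 of them higher and 2 lower, against 14% of all genes (8.33% higher, 5.69% lower). The median log2 fold change of the 62 was 0.16. The 12 were the cytoplasmic actin ACTG1, the crosslinkers ACTN1, ACTN4 and FLNA, the adhesion protein ZYX, MYL7, ROCK2, PPP1R14A, TNNI1, FHL3, CCN1 and EGR1. When libraries were scaled to their totals, 19 were called, all higher, and the share of higher calls among all genes went from 59.4% to 80%. Fewer than 14 were called without SMARCB1 DMSO replicate 1, and fewer of all genes were called then as well.

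TNNI1, the slow skeletal troponin I, was read at 0.926 and 0.88 CPM in SMARCB1 DMSO, 2.42 and 3.66 after Dox and between 4.06 and 5.39 in the GFP line, a log2 fold change of 1.75 (adjusted p = 8.26e-05). PPP1R14A, an inhibitor of myosin phosphatase, had 1.04 (adjusted p = 0.00124), and EGR1, an immediate early SRF target, had 0.77 (adjusted p = 0.00509). ELK3, an SRF partner of the ETS family, fell, at -0.28 (adjusted p = 0.0344). ACTB, the other cytoplasmic actin, had 0.16 (adjusted p = 0.262). In the GFP line edgeR called 0 of the 62, with 1 at an unadjusted p under 0.05. The interaction passed for ACTN1, ACTN4, MYL7 and TNNI1 (6.45% of the 62).

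The lines also differed before any Dox was given. In SMARCB1 DMSO against GFP DMSO, 23 of the 48 members were called (47.9%), 10 higher and 13 lower in the SMARCB1 line, against 32% of all genes (16.3% higher, 15.7% lower). Scaled to library totals, which moved the median of all genes from 0.01 to -0.10 on the log2 scale, 7 were higher and 15 lower. Of the calls over all genes, 32.1% were then higher in place of 50.9%. These libraries are the same SMARCB1 DMSO libraries as in the Dox comparison. Groups did not overlap with the SMARCB1 line higher for 15 members and lower for 19, against 33.1% and 31.6% of all genes.

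The largest gaps among the members concerned 3 genes. PDLIM3 was 35.8-fold higher in the SMARCB1 line (log2 5.16, SE 0.243, adjusted p = 1.28e-13). DMD was read at 924 and 964 CPM in SMARCB1 DMSO and at 116 and 118 in GFP DMSO, an 8.06-fold difference (log2 3.01, SE 0.0917, adjusted p = 5.40e-17). MEF2C, a MEF2 factor of muscle and other lineages, went the other way, with 0.549 and 0.485 CPM in SMARCB1 DMSO and 25.6 and 23.3 in GFP DMSO (log2 -5.56, SE 0.198, adjusted p = 8.76e-16). The GFP Dox libraries, at 110 and 111 CPM for DMD and 23.5 and 21.2 for MEF2C, lay beside the GFP DMSO libraries.

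TAGLN2 (log2 2.43, adjusted p = 8.94e-08), FHL1 (1.72, adjusted p = 3.94e-13) and SYNPO (0.60, adjusted p = 2.37e-06), the actin-binding protein synaptopodin, were also higher in the SMARCB1 line. SYNPO was read at 90.3 and 93.7 CPM in SMARCB1 DMSO, 79.9 and 82.7 after Dox and between 60.6 and 61.9 in the GFP line. CSRP2 (log2 -1.11, adjusted p = 1.47e-06), MRTFA (-0.89, adjusted p = 1.25e-07), VCL (-0.89, adjusted p = 4.96e-08) and CALD1 (-0.84, adjusted p = 0.00551) were lower. VCL was read at 511 and 517 CPM in SMARCB1 DMSO, 500 and 590 after Dox, 913 and 997 in untreated GFP cells and 971 and 1016 in GFP Dox, so its gap between lines remained with Dox. CALD1, which encodes caldesmon, was read at 2.13 and 2.79 CPM in SMARCB1 DMSO, 1.66 and 2.26 after Dox and between 4.23 and 6.5 in the GFP line. The other called members were MYH10, TAGLN, CSRP1, MYL6 and TNNC1 on the higher side and MEF2A, FLNC, CNN3, MYL9, TNNT1, SYNM, FHL2 and CKB on the lower side.

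**Figure D4:**
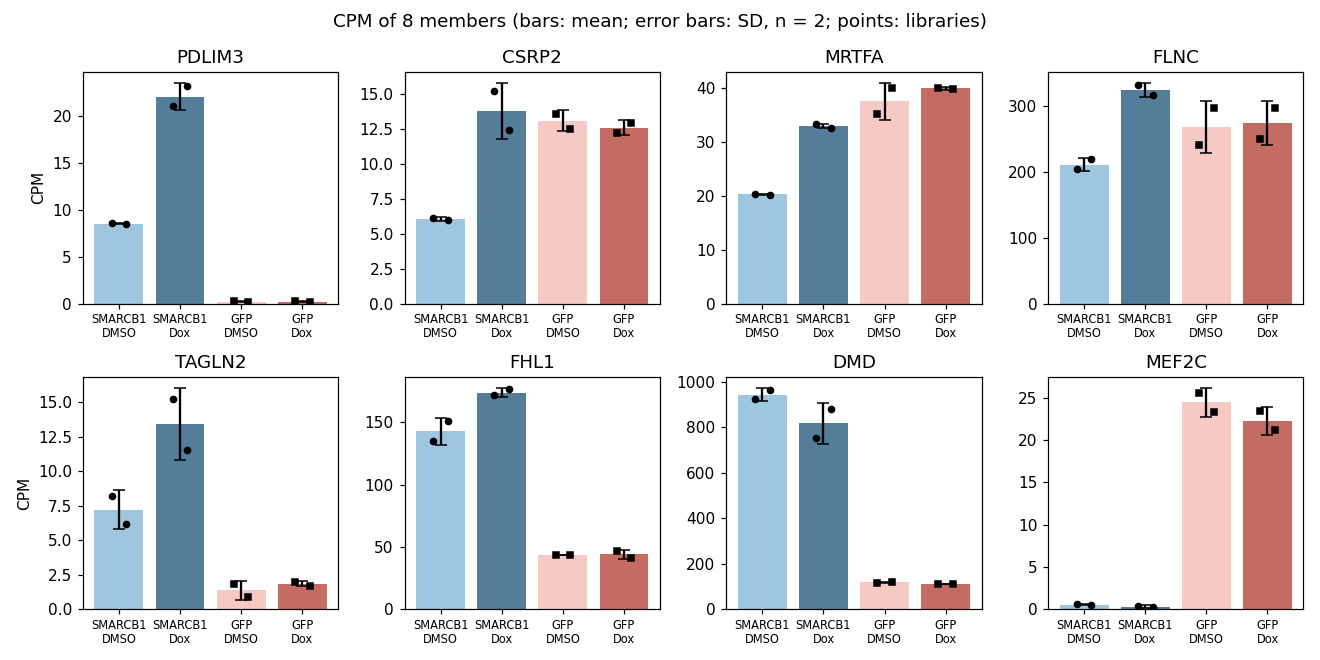
Level in CPM of 8 members in each group, with bars for the mean, error bars for the SD (n = 2) and points for the libraries. PDLIM3, TAGLN2, FHL1 and DMD are higher in both groups of the SMARCB1 line than in the GFP line, MEF2C is lower in both, and CSRP2 in SMARCB1 Dox reaches the GFP level.

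**Figure D5:**
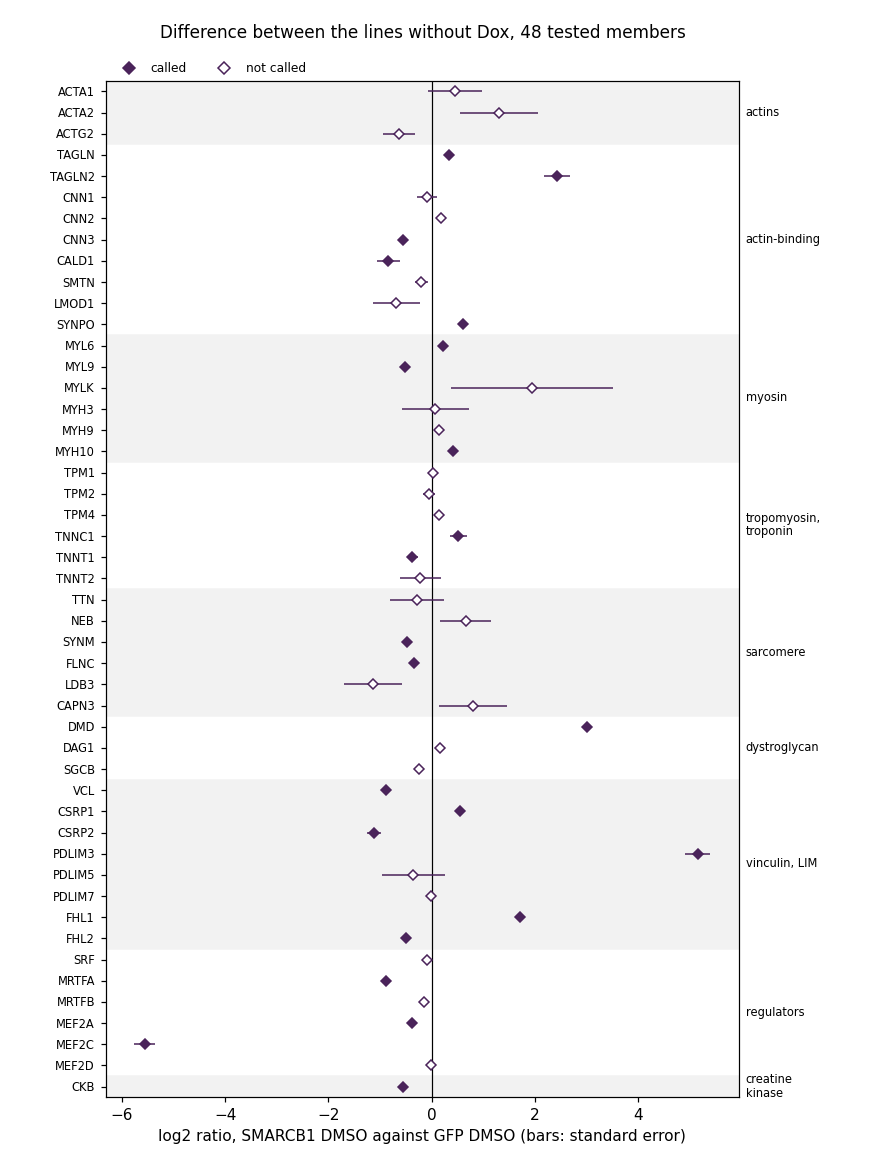
Log2 ratio of SMARCB1 DMSO to GFP DMSO for each of the 48 tested members, by role, with bars for the standard error and filled diamonds for the 23 members called. PDLIM3 and DMD lie farthest to the right, at 5.16 and 3.01, and MEF2C farthest to the left, at -5.56.

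Among the 62 related genes tested, 34 were called between the lines (54.8%), 23 higher and 11 lower, against 32% of all genes (16.3% higher, 15.7% lower). Their log2 ratios ran from -7.28 to 9.29, a wider range than that of the members. Scaled to library totals, 17 were called higher and 16 lower, and 32.1% of the calls over all genes were higher. Fewer than 34 were called without GFP DMSO replicate 2, and fewer of all genes were called then as well.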

How the data were processed

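RNA was sequenced from G401 cells in 8 libraries, 4 groups of 2, grouped by the sample titles. The authors aligned reads with STAR to hg38 and deposited unnormalised counts of reads over the exons of each GENCODE v42 gene, made by HTSeq in its intersection-strict mode (versions not given in the sources used here). Whether strand was used is not stated, and the labels and the methods name different library kits. The ribosome profiling libraries were not analysed here. The 5 entries that name no gene held 27% to 29.3% of the reads and were left out. Symbols, positions, exon length and GC content came from GENCODE v44, which matched 62625 of 69215 genes. The other 6590 held at most 0.000681% of the counts of a library.

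Counts were tested with edgeR 4.0.16 in R 4.3.3, with its expression filter, TMM scaling and the quasi-likelihood test over all 8 libraries with 1 mean per group. The threshold was a p under 0.05 after Benjamini-Hochberg adjustment over 15931 genes. The study used DESeq2, run here as an alternative (1.42.0). Alternatives also changed the scaling, the filter, the GC trend, the replicate block, the groups fitted and the libraries included. Log2 fold changes carry SE from the F statistic, and the depth of 29632090 to 37597477 counts sets the counting error. On simulated counts of the 15931 genes, 70% of 2-fold and 54% of 1.5-fold changes were recovered for the SMARCB1 line, with 12 false calls, and 78% and 53% for the GFP line, with 11. The simulation gave each gene the same fitted spread in all groups and held no smaller changes. It therefore does not describe the recovery of called members that changed by less than 1.5-fold.

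The members and the lists of related genes and markers were chosen with earlier results of these data known. Every member is accounted for. Values or ranges over all libraries are given for members called with Dox in the SMARCB1 line or in the interaction, and for the 5 higher and 5 lower called members of largest fold change between the lines without overlap. Of the related genes, the 3 higher and 3 lower called genes of largest fold change at a mean of at least 1 CPM are named, except 1 that is not reported here. Other named genes were chosen after their values were seen. Upstream sequences came from the RefSeq promoter table on GRCh38.p14. MEF2 and CArG elements were searched on both strands by their usual consensus.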

Additional observations from a re-analysis of the deposited data

Results flagged for a closer look

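Dox acted differently in the lines, by the interaction test over all genes, on 3 members (6.25% of those tested) and 4 related genes (6.45%), against 4.71% of all genes. The difference, as the log2 fold change in the SMARCB1 line minus that in the GFP line, was 1.24 for CSRP2, 0.61 for MRTFA and 0.59 for FLNC. Among the related genes it was 0.50 for ACTN1 (SE 0.123, adjusted p = 0.018), 0.70 for ACTN4 (SE 0.132, adjusted p = 0.00274) and 1.54 for TNNI1 (SE 0.336, adjusted p = 0.00812). ACTN1 and ACTN4 encode the non-muscle α-actinins, which crosslink actin filaments. ACTN4 was read at 229 and 257 CPM in SMARCB1 DMSO, 394 and 337 after Dox, 229 and 227 in untreated GFP cells and 195 and 227 in GFP Dox.

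MYL7, the atrial myosin light chain, had a fitted difference of 6.84 (adjusted p = 0.00302), a value that depends on the prior count because few reads stood behind it. The reads were 1 and 0 in SMARCB1 DMSO, 27 and 20 after Dox, 9 and 6 in untreated GFP cells and 1 and 3 in GFP Dox. The ratio of the summed levels in the SMARCB1 line was 41.4, with an exact 95% interval from 7.07 to 1669 that covers counting error only.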

How the results depend on the processing

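Leaving out 1 library at a time gave between 4 and 12 called members for Dox in SMARCB1 cells, 0 and 0 in GFP cells, 1 and 4 for the interaction and 18 and 23 between the lines. For the related genes it gave 8 to 15, 3 to 6 for the interaction and 22 to 36 between the lines. Except in GFP cells, the share of all genes called also moved in these fits, so the ranges cannot be read as particular to these genes. No call changed sign among the 27 members called in at least 1 comparison, whereas values that were not called did in some, such as TNNC1 with Dox in SMARCB1 cells. Other alternatives gave 10 to 19 members for Dox in the SMARCB1 line, 2 to 5 for the interaction and 21 to 25 between the lines. The shares of all genes called then ran from 8.16% to 19.8%, from 3.18% to 8.05% and from 17.4% to 39.1%. DESeq2 called 12 in the SMARCB1 line, without CNN1 and TPM2 and with TPM4 (27.9% of members, 13% of all genes). Scaled to library totals, 19 were called, all higher (39.6% of members, 15.6% of all genes called), and 80% of the calls over all genes were higher in place of 59.4%.

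The labels do not establish a pairing: they do not say that a replicate number is shared, and there are 2 numbers. Deviations of same-numbered libraries correlated at 0.227 between DMSO and Dox in the SMARCB1 line and at 0.235 in the GFP line. Between the lines the correlations ran from 0.067 to 0.13, so all were positive. Whether same-numbered libraries shared a batch was not tested. With the replicate block, 19 members passed with Dox in SMARCB1 cells (18 higher, 1 lower), 0 in GFP cells, 4 for the interaction and 25 between the lines, and 9 related genes for the interaction. More of all genes passed as well. The shares were 39.6% of members and 19.8% of all genes with Dox in SMARCB1 cells. They were 8.33% and 8.05% for the interaction, and 52.1% and 37.5% between the lines. With the GC trend removed as well, 18 were called in the SMARCB1 line (15 higher, 3 lower) and 5 for the interaction (4 higher, 1 lower). These were 37.5% and 10.4% of the members, against 18.9% and 7.71% of all genes. Between the lines, MYL6, TNNC1, TAGLN, TNNT1, FLNC, MYH10 and CALD1 each lost the call under at least 1 alternative. Depth limits the 11 members under 1 CPM, whose standard errors are the widest. The causes of these changes were not tested.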
